A study of Mus musculus with 24 samples.

Results

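The 10 genes described here encode chaperones and stress factors of the endoplasmic reticulum (ER): Hspa5, Hsp90b1, Calr, Canx, Pdia3, Pdia4, Pdia6, Xbp1, Atf4 and Ddit3. Each was read from a probe set annotated to exactly 1 symbol, and where a gene had several, from the probe set with the highest mean. They are 10 of 19938 genes with such a probe set, and all 10 were among the 11963 genes that passed a filter on low signal and were tested. Pdia4 had 2 probe sets, and the other one had a mean of 5.47 log2 units, under the filter threshold of 5.84. RNA was taken from the mediobasal hypothalamus, which includes the arcuate nucleus, of mice whose strain is given as C57BL76J. The sources used here give neither their age nor their sex. Under timed sleep restriction (TSR), gentle handling kept mice awake between ZT0 and ZT6 on 5 consecutive days, 2 days of free sleep followed, and a second run of 5 days came after that. Controls (CON) were left undisturbed over the same period. Zeitgeber time (ZT) counts hours after lights on, tissue was taken at ZT1, ZT7, ZT13 and ZT19, and each of the 8 groups has 3 Affymetrix arrays, 24 in all. The design text gives 3 mice at each time in each condition, the day of collection is not given, and p-values rest on the spread among the arrays of a group, which may be partly technical. The number of arrays limits the precision.

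The ER is where secreted and membrane proteins fold. Hspa5 (BiP) holds unfolded chains and also keeps the stress sensors of the ER membrane inactive, and when unfolded chains accumulate the sensors are released and start the unfolded protein response. Its branches act through the spliced form of the factor XBP1, through cleaved ATF6, and through a kinase that slows translation while raising translation of ATF4, which in turn induces Ddit3 (CHOP), a factor linked to cell death under lasting stress. Targets of ATF6 and XBP1 include the chaperones themselves, and in the brain Hspa5 is a familiar marker of prolonged waking. Whole-gene array signal does not tell spliced from unspliced Xbp1, nor protein from mRNA.

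The promoter element through which ATF6 acts, the ER stress response element, is shown first because it divides the members by sequence. The element was searched as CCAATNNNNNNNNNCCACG on both strands in the 250 bases before each annotated start, using RefSeq promoters of GRCm38.p6, in which all 10 members have a window. It was found in 5 of the 10 members, and in 35 of 27025 genes with a window (0.13%; 37 of 32851 windows, 0.113%). The members with it are Hspa5, Hsp90b1, with 2 copies, Calr, Canx and Pdia6. The 6 stretches below read 5′ to 3′ on the strand of the gene, with the element in capitals and 20 bases on each side. They begin with the Hspa5 element, 65 to 47 bases before the start on the plus strand of chromosome 2 (chr2:34772005-34772063).
Hspa5: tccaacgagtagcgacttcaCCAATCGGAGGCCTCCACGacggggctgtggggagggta
Pdia6: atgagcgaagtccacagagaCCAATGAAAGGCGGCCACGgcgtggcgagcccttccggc
Canx: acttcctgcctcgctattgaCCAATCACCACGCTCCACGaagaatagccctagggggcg
Hsp90b1, distal copy: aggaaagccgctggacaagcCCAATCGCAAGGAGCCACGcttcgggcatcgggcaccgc
Hsp90b1, proximal copy: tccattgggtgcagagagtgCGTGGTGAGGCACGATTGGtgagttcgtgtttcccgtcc
Calr: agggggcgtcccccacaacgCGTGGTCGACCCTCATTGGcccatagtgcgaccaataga
In Hspa5, Pdia6, Canx and the distal copy of Hsp90b1 the element lies on the strand of the gene, and in Calr and the proximal copy of Hsp90b1 on the opposite one, so that its reverse complement is in capitals. The Pdia6 stretch is chr12:17266471-17266529 (plus strand), with the element 98 to 80 bases before the start. The Canx stretch is chr11:50325780-50325838 (minus strand), with the element 145 to 127 bases before the start. The Hsp90b1 stretches are chr10:86705618-86705676 and chr10:86705513-86705571 (minus strand), and the Calr stretch is chr8:84847055-84847113 (minus strand), with the element 162 to 144 bases before the start. No match was found in the windows of Pdia3, Pdia4, Xbp1, Atf4 or Ddit3, which says only that these letters are not in this stretch. Among 80 other genes of the ER and stress pathway lists described below, 5 have a match: Creld2, Derl3, Dnajc3, Ero1b and Syvn1. A site bound by XBP1 in other work, TGACGTGG, was in 0 member windows against 0.563% of all windows, and the composite ATF4 site ATTGCATCA in 0 against 0.167%. The matches are a description of sequence, and binding was not measured. Chaperones are known targets of ATF6, so the contrast between members and all genes follows largely from their choice. It was not tested.

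**Figure D1:**
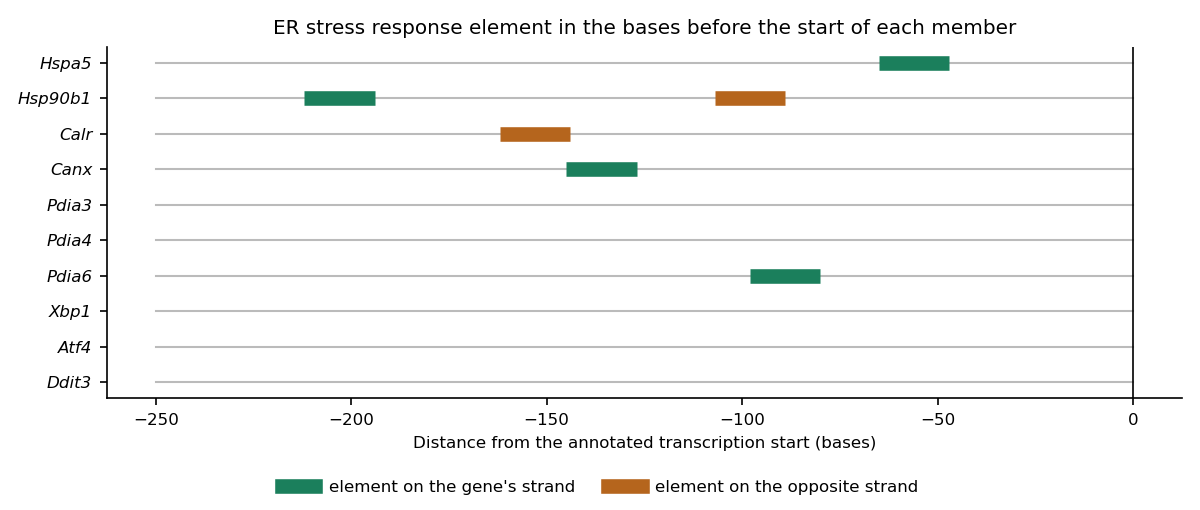
Position of the ER stress response element in the 250 bases before the annotated start of each member, with distance in bases on the x axis, 1 line per gene, green for the strand of the gene and brown for the opposite strand. The 5 members with a match carry it between 212 and 47 bases before the start, and Hsp90b1 carries 2.

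The deposited values are log2 probe-set signals. In 4 of the 24 arrays they were spread over a narrow range, with an interquartile range of 2.12 to 2.25 log2 units against 2.96 to 3.29 in the other 20, and a median Spearman correlation with the other arrays of 0.831 to 0.879 against 0.972 to 0.982. These are TSR ZT1 replicate 3, TSR ZT13 replicate 2, and CON ZT19 replicates 2 and 3. Results are therefore given from a limma fit of all 24 arrays and from a fit of the 20 arrays of typical spread. The median residual SD of a gene was 0.361 in the first and 0.111 in the second. In the 20 arrays CON has 1 array at ZT19, whose spread is taken from the other groups, and TSR has 2 at ZT1 and at ZT13. Of 8 arcuate and ventromedial marker genes on the array, 6 were tested, among them Tac2 (8.10 to 9.19 over the 20 arrays) and Npy (6.43 to 7.63), whereas Pomc (5.32 to 6.02) and Nr5a1 (5.09 to 6.08) had means under the filter threshold. In tissue of mixed cells, fewer cells of a type and less RNA per cell cannot be told apart.

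The narrow arrays moved most members a long way. Signal in all 4 lay below every typical array for 8 of the 10 members. Hspa5 read 8.94 to 9.34 there against 10.03 to 10.81 in the typical arrays, Canx 9.39 to 10.38 against 11.32 to 11.79, and Xbp1 6.23 to 6.93 against 8.26 to 8.69. Ddit3, a gene of low signal, went the other way, with 7.26 to 7.90 against 6.27 to 6.83, and Atf4 overlapped (6.25 to 6.81 against 6.59 to 7.14). Since the 4 arrays sit in 3 groups, the differences at ZT1, ZT13 and ZT19 depend on them, and ZT7 has none.

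**Figure D2:**
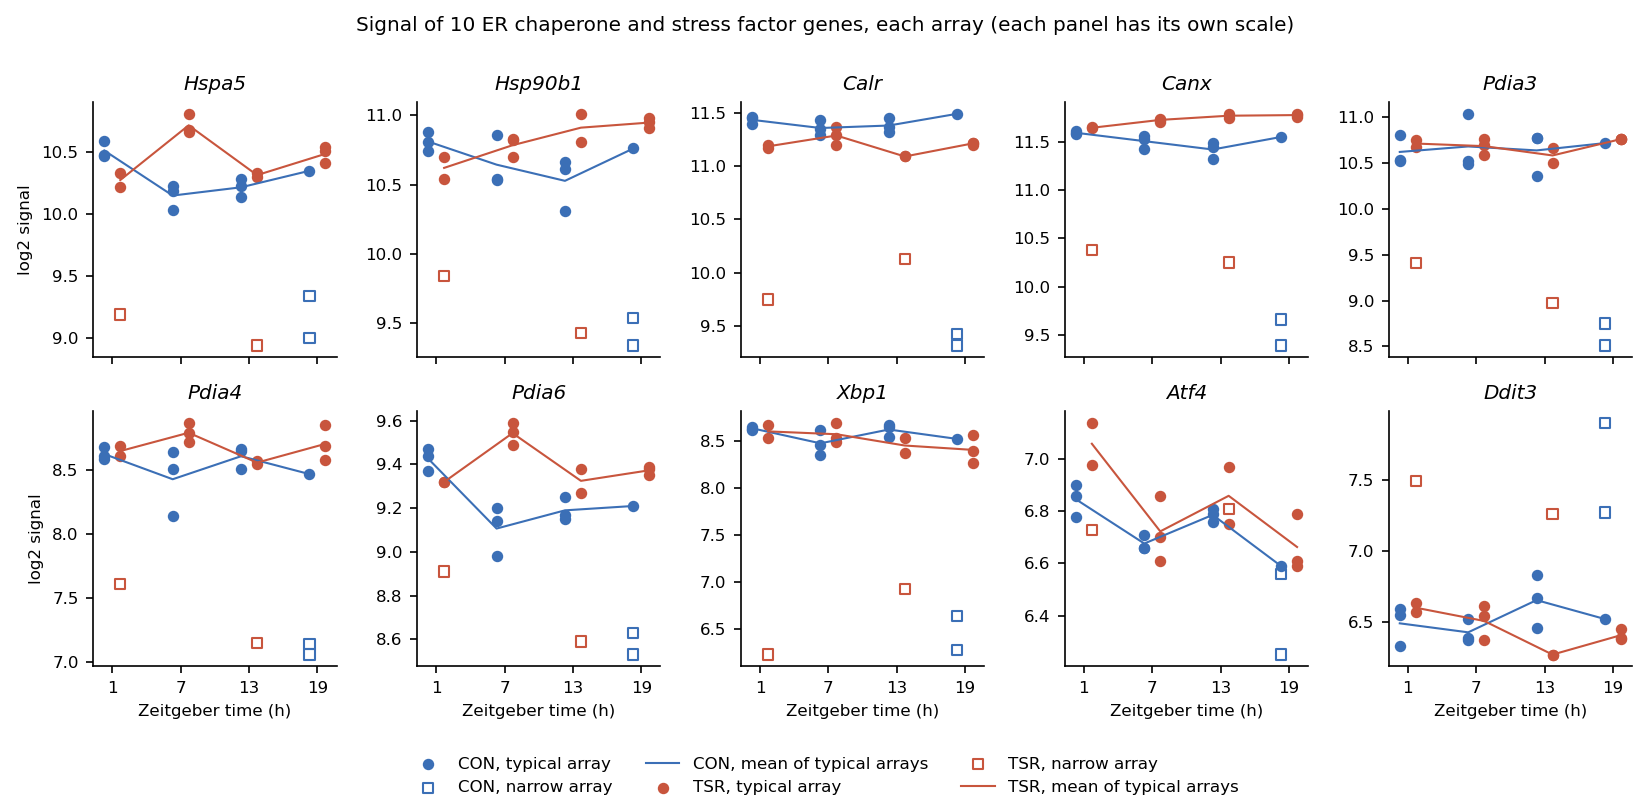
Log2 signal (y axis, own scale in each panel) of the 10 members in every array against zeitgeber time in hours, CON in blue and TSR in red, filled circles for the 20 typical arrays, open squares for the 4 narrow ones, lines through the means of the typical arrays. At ZT7 the TSR arrays of Hspa5, Pdia4, Pdia6 and Canx lie above all CON arrays, and at the other times the open squares lie far from the circles for most members.

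Hspa5, the chaperone that also gates the stress sensors, was higher in TSR at ZT7, the time point just after the daily hours of waking. The CON arrays read 10.19, 10.23 and 10.03 and the TSR arrays 10.81, 10.66 and 10.68. The 2 groups did not overlap, and the lowest TSR array was above the highest CON array. In the 20 arrays the difference, TSR minus CON, was 0.57 ± 0.06 log2 units (SE), 1.48-fold, with a 95% interval of 0.44 to 0.70 (limma adjusted p = 1.54e-06). Under 21 alternatives in the 20 arrays it ranged from 0.51 to 0.61, with a largest limma adjusted p of 2.82e-05. Of these alternatives 19 left out 1 array, and leaving out an array of another time can change the SE but not the difference. With the spread of all 24 arrays the same difference had an SE of 0.36 and did not pass (limma adjusted p = 1). At ZT1 the direction was the opposite. CON read 10.48, 10.59 and 10.47 and TSR 10.33 and 10.22, with 9.19 in the narrow array, so that every CON array was above every TSR array. Without the narrow array Hspa5 fell by 0.24 ± 0.07 (limma adjusted p = 0.0331), a call lost without any 1 of the 5 typical ZT1 arrays, with adjusted p from 0.0515 without CON ZT1 replicate 3 to 0.288 without TSR ZT1 replicate 2. At ZT13 (CON 10.14, 10.28 and 10.23, TSR 10.33 and 10.30, and 8.94 in the narrow array) and at ZT19 (CON 10.35, narrow 9.34 and 9.0, TSR 10.54, 10.51 and 10.41) the 20-array differences of 0.10 ± 0.07 and 0.14 ± 0.09 did not pass. Ordered by level in typical arrays, the TSR ZT7 mean was highest at 10.72 ± 0.08 (SD, n = 3) and apart from the next group, CON ZT1, at 10.51 ± 0.06. The lowest was CON ZT7 at 10.15 ± 0.11, which overlapped CON ZT13 at 10.22 ± 0.07.

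Pdia6, Pdia4 and Pdia3 are protein disulfide isomerases, which make and rearrange disulfide bonds, and Pdia3 works on glycoproteins together with Calr and Canx. Pdia6 followed the order of Hspa5 at both ends. At ZT7 it read 9.14, 9.20 and 8.98 in CON and 9.55, 9.49 and 9.59 in TSR, with no overlap, a rise of 0.44 ± 0.06 in the 20 arrays (limma adjusted p = 2.68e-05) that had an SE of 0.23 in the 24 (adjusted p = 0.994). Its highest group mean was TSR ZT7 (9.54 ± 0.05) and its lowest CON ZT7 (9.10 ± 0.11). Pdia4 read 8.64, 8.51 and 8.14 in CON at ZT7 and 8.72, 8.79 and 8.87 in TSR, where the CON arrays differed by 0.50 among themselves. It rose by 0.36 ± 0.10 in the 20 arrays (limma adjusted p = 0.00778), by 0.22 without CON ZT7 replicate 3 (0.0467), and with the 6 arrays of ZT7 fitted alone it did not pass (adjusted p = 0.051). Pdia3 showed no such shift. At ZT7 its CON arrays read 10.49, 11.04 and 10.52 and its TSR arrays 10.70, 10.77 and 10.59, within the CON range, and the 20-array difference was 0.00 ± 0.12, with a 95% interval of -0.25 to 0.26. It had the widest spread of the members in the 20 arrays, a residual SD of 0.182.

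Canx and Calr are the lectin chaperones of the ER, membrane-bound and soluble, which retain glycoproteins until they are folded. Their differences ran in opposite directions. Canx in CON read 11.59, 11.61 and 11.58 at ZT1, 11.43, 11.56 and 11.53 at ZT7, and 11.32, 11.45 and 11.49 at ZT13. In TSR it read 11.65 and 11.64, then 11.74, 11.73 and 11.71, then 11.75 and 11.79 at the same times. At ZT19 it was 11.55 in the typical CON array against 11.76, 11.78 and 11.79 in TSR. TSR lay above CON at all 4 times in the typical arrays, and the 20-array difference passed at ZT7 (0.22 ± 0.05, limma adjusted p = 0.00134), ZT13 (0.35 ± 0.05, 2.21e-05) and ZT19 (0.23 ± 0.06, 0.0151) and did not at ZT1 (0.05 ± 0.05). Quantile normalization of the 20 arrays raised the Canx values at ZT13 and ZT19 to 0.53 and 0.41. Calr in CON read 11.39, 11.46 and 11.45 at ZT1, 11.35, 11.43 and 11.29 at ZT7, 11.32, 11.45 and 11.37 at ZT13, and 11.49 at ZT19. In TSR it read 11.17 and 11.20, then 11.20, 11.29 and 11.37, then 11.09 and 11.09, then 11.22, 11.20 and 11.22. The groups overlapped at ZT7 and not at the other times, and each of the 4 CON means was above each of the 4 TSR means. Calr fell by 0.25 ± 0.06 at ZT1 (limma adjusted p = 0.00831, lost without TSR ZT1 replicate 1 at 0.102 or replicate 2 at 0.0635), by 0.29 ± 0.06 at ZT13 (0.000309) and by 0.28 ± 0.07 at ZT19 (0.00869), and the difference at ZT7 was -0.07 ± 0.05. For Calr the same normalization ended the calls at ZT13 (-0.06, limma adjusted p = 0.438) and ZT19 (-0.08, 0.469), and gave -0.37 at ZT1. With all 24 arrays the ZT19 difference of Calr turned to 1.13 ± 0.44 (limma adjusted p = 0.0381), since its 2 narrow CON arrays read 9.43 and 9.32.

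Hsp90b1, the ER member of the family of large ATP-driven chaperones that complete the folding of receptors, passed at ZT13 and at no other time in the 20 arrays, and its differences were not compared between single times. At ZT13 it read 10.31, 10.66 and 10.61 in CON and 10.81 and 11.01 in TSR, with 9.43 in the narrow array. It rose by 0.39 ± 0.10 in the 20 arrays (limma adjusted p = 0.004), a call lost without TSR ZT13 replicate 3 (0.0904), and in the 24 arrays the difference was -0.11 ± 0.37. At ZT1 its TSR arrays of 10.54 and 10.70 lay below the CON arrays of 10.74, 10.88 and 10.81, a difference of -0.19 ± 0.10 that did not pass. At ZT7 the groups overlapped (CON 10.53, 10.86 and 10.54, TSR 10.70, 10.83 and 10.82).

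Of the transcription factors of the response, Ddit3 passed at ZT13 in the 20 arrays and Xbp1 and Atf4 passed at no time there. Xbp1 at ZT7 read 8.61, 8.46 and 8.35 in CON and 8.49, 8.69 and 8.53 in TSR, and the 20-array difference of 0.09 ± 0.08 had a 95% interval of -0.08 to 0.27. At ZT13 its TSR arrays of 8.53 and 8.37 were below the CON arrays of 8.67, 8.54 and 8.65 (-0.17 ± 0.09, limma adjusted p = 0.143). Atf4 at ZT7 read 6.71, 6.66 and 6.66 in CON and 6.70, 6.61 and 6.86 in TSR (0.05 ± 0.09, interval -0.13 to 0.23). Its TSR arrays were above CON only at ZT1, at 7.14 and 6.98 against 6.90, 6.86 and 6.78, a difference of 0.21 ± 0.10 that did not pass (limma adjusted p = 0.163), and its narrow array there read 6.73. Ddit3 at ZT7 read 6.37, 6.39 and 6.52 in CON and 6.37, 6.61 and 6.54 in TSR (0.08 ± 0.10, interval -0.13 to 0.29). At ZT13 it read 6.83, 6.67 and 6.46 in CON and 6.27 and 6.27 in TSR, with 7.26 in the narrow array, and fell by 0.38 ± 0.11 in the 20 arrays (limma adjusted p = 0.00845) against -0.05 ± 0.29 in the 24.

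Members at an adjusted p under 0.05 were counted at each time beside the share of all genes. The counts were tested neither against that share nor between times, and the times differ in how many typical arrays they have. At ZT13 the share of members was near that of all genes. At ZT7 4 of 10 were higher and 0 lower in the 20 arrays, where 26.7% of all genes passed and 12.9% were higher. The members' median difference was 0.12, with 9 of 10 above 0, against 0.00 for all genes, and the groups did not overlap for 4 of 10 members against 36.1% of all genes. At ZT1 0 were higher and 2 lower (Hspa5 and Calr), against 10% of genes in either direction and 3.09% lower. At ZT13 2 were higher (Hsp90b1 and Canx) and 2 lower (Calr and Ddit3), against 45.9% of genes. After quantile normalization of the 20 arrays 4 were higher and 1 lower, where 5967 of 11963 genes passed. At ZT19 1 was higher (Canx) and 1 lower (Calr), against 24.7%. In the 24 arrays 0 members passed at ZT1 (background 0.0502%), 0 at ZT7 (0.460%) and 0 at ZT13 (0.418%), and 0 had an unadjusted p under 0.05 at these times. At ZT19 8 passed, 7 higher and Ddit3 lower, against 55.4% of all genes and with a median over all genes of 0.59, and Xbp1 (1.26 ± 0.54, limma adjusted p = 0.0536) and Atf4 (0.20 ± 0.13) did not pass. These 24-array shifts at ZT19 have the direction of the 2 narrow CON arrays, and without both, in the 20 arrays, the count was 2. In the 24 arrays the count was 0 without any 1 of TSR ZT19 replicates 1 and 2 and CON ZT19 replicates 2 and 3. In each of those fits 1 of 11963 genes passed. Without TSR ZT19 replicate 3 the count was 2 (3307 genes), and with the 6 arrays of ZT19 fitted alone it was 0 (4 genes).

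**Figure D3:**
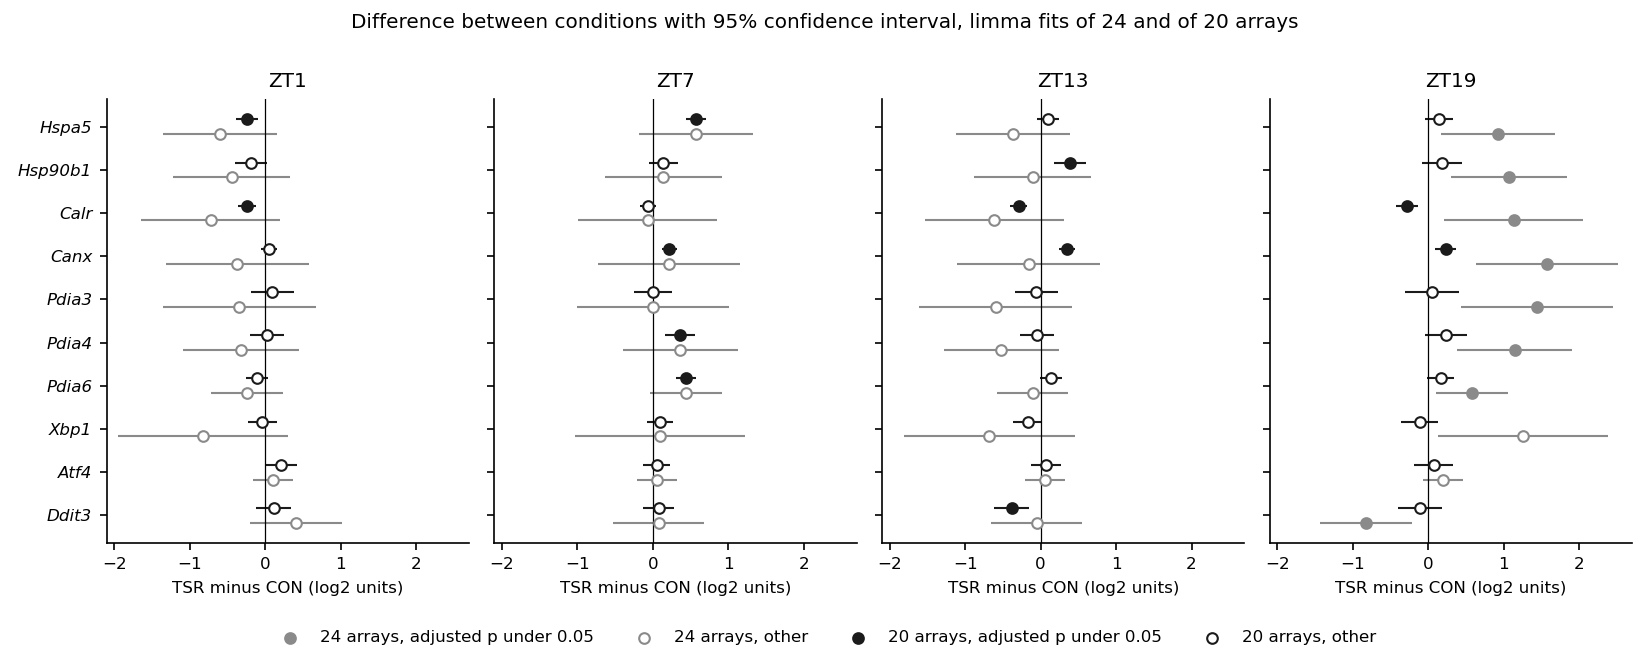
Difference TSR minus CON in log2 units (x axis) with its 95% confidence interval for each member (y axis) at the 4 times, grey for the limma fit of 24 arrays and black for the fit of 20, filled where the adjusted p was under 0.05. At ZT7, where no array is narrow, both fits give the same differences with wider intervals from 24 arrays, and at ZT19 the grey points of most members lie far to the right of the black ones.

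Averaged over the 4 times, 6 members passed in the 20 arrays, against 56.3% of all genes. Canx (0.21 ± 0.03, limma adjusted p = 2.25e-06), Pdia6 (0.16 ± 0.04), Pdia4 (0.14 ± 0.06), Hspa5 (0.14 ± 0.04) and Hsp90b1 (0.13 ± 0.05) were higher and Calr (-0.22 ± 0.03, 3.89e-06, and -0.13 after quantile normalization) lower. Members that did not pass were Pdia3 (0.02 ± 0.07), Xbp1 (-0.06 ± 0.05), Atf4 (0.10 ± 0.05) and Ddit3 (-0.08 ± 0.06). Of the 19 arrays left out in turn, 11 ended the call of Hsp90b1 and 8 that of Pdia4, up to an adjusted p of 0.117 for Hsp90b1 without TSR ZT13 replicate 3 and 0.0769 for Pdia4 without TSR ZT1 replicate 1. In the 24 arrays 0 passed, against 2.40% of genes.

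The difference at ZT7 was also set against the mean difference at the other times, which tests ZT7 alone and not whether the effect varied over the 4 times. Here 3 members passed in the 20 arrays, all with a larger value at ZT7, against 13.1% of all genes in either direction and 4.67% in this one. The value was 0.57 ± 0.08 for Hspa5 (limma adjusted p = 8.74e-05), 0.37 ± 0.08 for Pdia6 (0.00322) and 0.20 ± 0.06 for Calr (0.0342). Calr fell at the other times and differed by -0.07 at ZT7, and its call was lost on leaving out 6 of the arrays in turn, up to 0.116 without TSR ZT7 replicate 3, and after quantile normalization (0.0934). Pdia4 had 0.29 ± 0.12 (adjusted p = 0.103), and Canx 0.01 ± 0.06. In the 24 arrays 0 passed, against 0.0669% of genes. ZT7 was singled out with the Hspa5 result already known.

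A 24-h rhythm was fitted in each condition from 2 contrasts, ZT1 minus ZT13 and ZT7 minus ZT19. In CON 3 members passed in the 20 arrays, against 21.4% of genes, all with a peak near the time of lights on. Hspa5 had an amplitude (mean to peak) of 0.18 log2 units and a peak at ZT22.7 (limma adjusted p = 0.00288), Pdia6 0.13 and ZT23.4 (0.0173), and Canx 0.09 and ZT0.1 (0.0238). In TSR 1 of 10 passed, against 21.5% of genes: Hspa5, with an amplitude of 0.11 and a peak at ZT7.7 (limma adjusted p = 0.0351). Its TSR means in typical arrays were 10.27, 10.72, 10.31 and 10.49 at ZT1, ZT7, ZT13 and ZT19. The level at ZT19 was thus above those at ZT13 and ZT1, which a single 24-h curve does not describe. How well such a curve describes the levels was not tested. Pdia6 in TSR had its fitted peak at ZT7.1 with an amplitude of 0.09 (adjusted p = 0.121). Whether the peak of either gene differed between conditions was not tested as such. The call of Hspa5 in TSR was lost without 4 of the arrays in turn, up to 0.152 without TSR ZT7 replicate 1. The single CON array at ZT19 enters the CON rhythm, and the CON count fell to 1 without CON ZT1 replicate 1, CON ZT1 replicate 2 or CON ZT13 replicate 1. In the 24 arrays 0 members passed in CON (0.109% of genes) and 0 in TSR (0.0920%).

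The members were then set beside other genes of the same pathways, 98 on the array in 5 lists, of which 94 were tested. In the 20 arrays at ZT7, 18 were higher and 10 lower, 29.8% of the 94 against the 26.7% of all genes given above. At ZT13 27 were higher and 17 lower (46.8% against 45.9%), at ZT1 8 and 3 (11.7% against 10%), and at ZT19 24 and 3 (28.7% against 24.7%), so the shares lay near those of all genes. At ZT7, to which the values that follow belong, folding and redox factors had 8 higher and 1 lower of 23. Their list median was 0.10 against 0.00 for all genes. Among them Dnajc3 and Dnajb11, co-chaperones of Hspa5, rose by 0.42 ± 0.08 (limma adjusted p = 0.000579) and 0.39 ± 0.08 (0.00102), the calcium-binding protein gene Calu by 0.57 ± 0.08, and Clgn, a relative of Canx, by 0.49 ± 0.13. Genes of translocation and signal peptide processing had 5 higher and 3 lower of 23, with Stt3a, a catalytic subunit of the oligosaccharyltransferase, at 0.50 ± 0.07, Sec62, part of the translocon, at 0.42 ± 0.07, Ssr4 at -0.34 ± 0.07 and Srprb, a subunit of the signal recognition particle receptor, at -0.27 ± 0.09. ER-associated degradation had 2 higher and 1 lower of 18, with Edem3 at 0.26 ± 0.07 and Edem2 at -0.411 ± 0.085, both acting on mannose of misfolded glycoproteins, whereas Derl3 (0.165 ± 0.118) and Ube2g2 (0.12 ± 0.08) did not pass. Stress sensors and their processing enzymes had 0 higher and 1 lower of 8, Creb3l1 at -0.53 ± 0.10, and Atf6 (0.21 ± 0.09), Eif2ak3 (PERK, 0.16 ± 0.10) and Creb3l2 (0.09 ± 0.08) did not pass. The branch of the eIF2alpha kinases and ATF4 had 3 higher and 4 lower of 22, with Gars, a transfer RNA synthetase gene, at 0.42 ± 0.07 and Sesn2 at -0.41 ± 0.12, and Phgdh (-0.40 ± 0.18) and Cebpg (0.155 ± 0.074) did not pass. Of the named genes that rose at ZT7, Calu (0.742), Clgn (0.656), Stt3a (0.855), Sec62 (0.452) and Edem3 (0.372) had larger 20-array differences at ZT13. Those of Dnajc3 (0.342), Dnajb11 (0.25) and Gars (0.237) were smaller there. Differences between times were not tested for these genes. In the 24 arrays at ZT7 0 of the 94 passed in either direction.

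Across the 20 typical arrays, as a description over arrays that share groups, Hspa5 and Pdia6 had a Pearson correlation of 0.92, Hsp90b1 and Canx of 0.80, Pdia4 and Pdia6 of 0.75, and Hspa5 and Pdia4 of 0.71. Calr and Canx had -0.62, Hspa5 and Calr -0.02, and Hspa5 and Atf4 -0.07. Of 11928 genes with a value in all 20 arrays, those with the highest correlation with Hspa5 were Pdia6 (0.916), Pecam1 (0.889), Adgrl4 (0.869), Mid2 (0.844), P2ry13 (0.843), Zfp804a (0.828), Nus1 (0.823) and Tcf7l2 (0.820). Each of these 8 rose at ZT7 in the 20 arrays, from 0.31 ± 0.06 for Nus1 to 1.61 ± 0.10 for Zfp804a, and Pecam1, an adhesion gene of endothelial cells, rose by 0.68 ± 0.10. These genes were picked for likeness to Hspa5 over the same arrays, where TSR ZT7 was its highest group and CON ZT7 its lowest. A rise at ZT7 therefore follows largely from the choice and is no separate result.

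**Figure D4:**
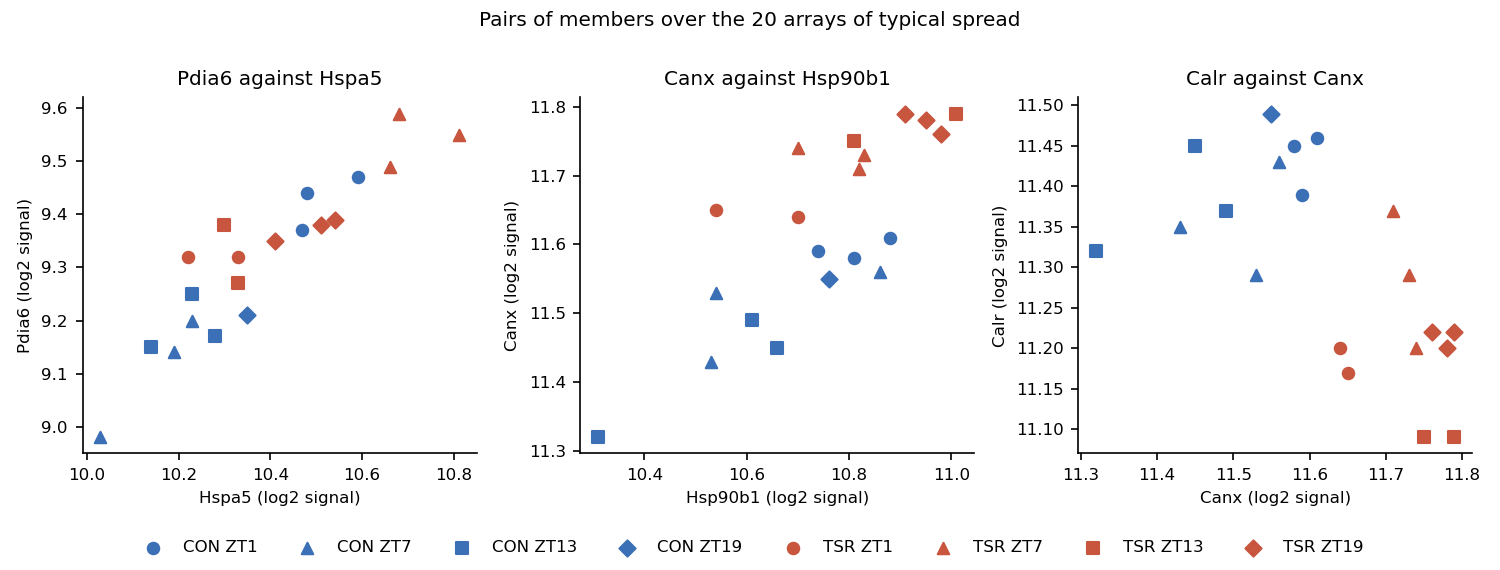
Log2 signal of 3 pairs of members in the 20 typical arrays, each point 1 array, CON in blue, TSR in red, with the marker shape giving the time. Pdia6 rises with Hspa5 (r = 0.92) with TSR ZT7 at the top and CON ZT7 at the bottom, Canx rises with Hsp90b1 (r = 0.80), and Calr is lower where Canx is higher (r = -0.62), with CON and TSR apart.

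Markers of several cell types and neighbouring regions differed at the times when members did. In the 20 arrays the share of all genes that passed was 26.7% at ZT7, 10% at ZT1 and 45.9% at ZT13. At ZT7 mean log2 signal over 6 forebrain cholinergic genes was 5.60 to 5.93 in the CON arrays and 7.46 to 7.56 in the TSR arrays, and 4 of 4 tested were higher in the 20 arrays, Slc5a7 by 3.16. Over 10 endothelial and mural genes it was 6.30 to 6.41 against 6.79 to 6.82, with 4 of 8 higher, among them Pecam1 and the efflux pump gene Abcb1a (0.82). Over 10 suprachiasmatic genes it was 7.58 to 7.63 against 6.82 to 6.89, with 8 of 8 lower, and over 7 genes of cortex and thalamus 6.10 to 6.25 against 6.52 to 6.71, with 3 of 6 higher and 1 lower. Over 8 hepatocyte and plasma protein genes it was 7.29 to 7.42 against 6.79 to 6.86, with 5 of 6 lower and 1 higher, and of 11 neuron markers 8 were higher and 1 lower. Astrocyte markers had 0 higher and 3 lower of 9, tanycyte and ependymal markers 1 and 3 of 5, oligodendrocyte markers 3 and 0 of 8, microglial markers 0 and 0 of 6, and arcuate and ventromedial markers 0 and 2 of 6. At ZT1, where Hspa5 and Calr fell, plasma protein genes had 6 of 6 higher (median 1.76), oligodendrocyte markers 7 of 8 (0.56), and arcuate and ventromedial markers 3 of 6 lower. At ZT13, where Hsp90b1 and Canx rose and Calr and Ddit3 fell, cholinergic genes had 4 of 4 higher (median 0.76), cortex and thalamus 4 higher and 1 lower of 6, suprachiasmatic genes 6 of 8 lower, and tanycyte and ependymal markers 3 of 5 lower. Arcuate and ventromedial markers had 3 of 6 lower there, and plasma protein genes 3 of 6 higher. At ZT19, where Canx rose and Calr fell and CON has 1 typical array, the median difference over all genes was 0.08. It was 1.3 for plasma protein genes, 0.34 for endothelial and mural genes, 0.92 for cortex and thalamus and 0.81 for cholinergic genes. For arcuate and ventromedial markers it was -0.36. Not every list is named at ZT1, ZT13 and ZT19. The cholinergic mean was also 7.10 to 7.24 in CON at ZT1, the group with the highest CON mean of Hspa5, and 6.05 to 6.18 in CON at ZT13. In TSR at ZT1 it was 7.38 to 7.47, close to TSR at ZT7, while the Hspa5 mean there was 10.27, below both CON ZT1 and TSR ZT7. Mean signal over the 11 neuron markers was 9.93 to 10.09 in CON and 10.36 to 10.39 in TSR at ZT7. At ZT1 the neuron mean was 10.41 to 10.42 in CON and 10.26 to 10.3 in TSR, lower in TSR as for Hspa5. In TSR at ZT19 the neuron mean was 10.17 to 10.2, below TSR ZT1, whereas the Hspa5 mean was higher at ZT19 (10.49) than at ZT1. Of 7 pituitary endocrine genes on the array, which ranged from 2.99 (Tshb) to 6.24 (Lhb) over the 20 arrays, only Lhb was tested, and in the 20 arrays it did not pass at any time. The part of these marker differences in the members' values at each time was not tested.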

How the data were processed

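RNA of 24 mouse hypothalamus samples was labelled with biotin and hybridized to Affymetrix arrays, per the labels. Affymetrix Expression Console is listed in the submitters' processing notes. Its version and its summary of probes were not given in the sources used here. Per array, the authors deposited 35556 log2 probe-set signals. In some cells the decimal point had shifted: 2178 of 853344 (0.255%) were restored by a factor of 10, and 65 cells that had lost digits or lay over 2 log2 units from arrays of like spread with at most 5 digits were set to missing, none of them in the members. Genes came from the array annotation (21789 probe sets with 1 symbol, 1621 with several, 12146 with none), and 21698 were matched to GRCm38.p6. A filter removed the lowest 40% of genes by mean signal, and 11963 were tested. limma 3.58.1 in R 4.3.3 fitted 8 group means with a trend, 2-sided, with Benjamini-Hochberg adjustment over all genes tested. Arrays with an interquartile range under 2.5 log2 units were left out in a parallel fit. Other settings were normalization, array weights, replicate number, filter, probe-set choice, shifted cells, arrays of 1 time and leaving out 1 array. Scripts were tested on simulated data. All members are named, up to 4 genes of each pathway list by unadjusted p at ZT7 in the 24 arrays, the 8 genes most like Hspa5, and marker genes. The members, lists and these rules were chosen with earlier results of these data known.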

Additional observations from a re-analysis of the deposited data

Results flagged for a closer look

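The difference between TSR and CON at ZT7 lay above the mean difference at the other times for 3 members in the limma fit of 20 arrays, by 0.569 log2 units for Hspa5, 0.374 for Pdia6 and 0.203 for Calr. For Calr this is a decrease at the other times (-0.246 at ZT1, -0.292 at ZT13 and -0.279 at ZT19) set against -0.07 at ZT7. Its call was lost without any 1 of 6 arrays and after quantile normalization (limma adjusted p = 0.0934).

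Hspa5, Pdia6 and Hsp90b1 also had groups that did not overlap in opposite directions at different times, a pattern whose difference between single times was not tested. At ZT7 groups did not overlap for 36.1% of all genes, and that share was not counted at other times. In the 20 arrays ZT1 and ZT13 set 2 TSR arrays against 3 CON arrays, which separate more easily. TSR was apart from CON there for 2 members higher and 4 lower at ZT1, and 4 higher and 3 lower at ZT13. With no share of all genes at these times, the counts do not set the members apart from other genes. For Hspa5, TSR minus CON in the 20 arrays was 0.567 at ZT7 and 0.097 at ZT13, with every TSR array above every CON array, and -0.241 at ZT1, with every TSR array below. In the 24 arrays it was 0.567 at ZT7, 0.927 at ZT19 and -0.602 at ZT1. For Pdia6 the values in the 20 arrays were 0.44 at ZT7, 0.14 at ZT13 and -0.105 at ZT1, and in the 24 arrays 0.44 at ZT7, 0.583 at ZT19 and -0.243 at ZT1. For Hsp90b1 they were 0.386 at ZT13 and -0.189 at ZT1 in the 20 arrays, and 1.069 at ZT19 and -0.448 at ZT1 in the 24. The ZT1 and ZT19 values of the 24 arrays include narrow arrays.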

How the results depend on the processing

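Leaving out the narrow arrays, and the setting that weights arrays by their spread, changed most counts of members past the threshold, and the cause was not tested. From the 24-array counts of 0, and 8 at ZT19, the 20 arrays gave 2 at ZT1, 4 at ZT7, 4 at ZT13, 2 at ZT19, 6 for the mean of the times, 3 for ZT7 against the other times, and 3 and 1 for rhythms in CON and TSR. Array weights gave 3 at ZT1, 4 at ZT7, 4 at ZT13, 9 for the mean, 7 for ZT7 against the other times (1 higher and 6 lower, where all 3 of the 20-array calls were higher), and 9 and 6 for the rhythms. Of 11963 genes tested, array weights called 3132, 3749, 6014, 9315, 8250, 10330 and 5045 in the same order. Those weights put the typical CON ZT19 array at 0.0184, below its 2 narrow partners (0.408 and 0.689). Fitting only the 6 arrays of a time gave 3 at ZT7, where 2115 of 11963 genes passed, and 0 at ZT19, where 4 genes passed.

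Directions turned for Hsp90b1 at ZT13 (0.386 in the 20 arrays, 0.212 after quantile normalization, 0.258 with array weights), Canx at ZT13 (0.349, 0.17 and 0.297 in the same order), Calr at ZT19 (-0.279 in the 20 arrays), Calr in the mean (0.294 with array weights), Pdia6 at ZT19 (-0.008 after quantile normalization) and Ddit3 at ZT13 (0.058 after quantile normalization). That normalization of the 24 arrays moved the median of all genes at ZT19 from 0.59 to 0.39. In the 20 arrays, quantile normalization gave 3 members at ZT1 (all lower), 5 at ZT7 (all higher), 5 at ZT13 (4 higher) and 4 for the rhythm in TSR. Of 11963 genes tested, 1490, 3811, 5967 and 3335 passed in the same order.

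Leaving out 1 of the 24 arrays moved the ZT19 count between 0 (without TSR ZT19 replicate 2, among others) and 9, and the CON rhythm count between 0 and 8 (without CON ZT19 replicate 1). Without TSR ZT19 replicate 2, 1 of 11963 genes passed at ZT19. Without CON ZT19 replicate 1, 9343 genes passed at ZT19 and 7833 for the CON rhythm. Leaving out 1 array also moved Hsp90b1 at ZT13 from -0.403 to 0.386, Canx at ZT13 from -0.423 to 0.349, Ddit3 at ZT13 from -0.382 to 0.11, and Calr in the mean from -0.163 to 0.108. In the 20 arrays the ZT1 count lay between 0 (without TSR ZT1 replicate 1 or 2) and 2, the CON rhythm count between 1 and 4, and the TSR rhythm count between 0 and 2. Without ZT19, 4 of 6 members passed in the mean (5540 of 11963 genes) and 2 of 3 for ZT7 against the other times (1018 genes). With the replicate block, 9 members passed at ZT19 in the 24 arrays, as did 6657 of 11963 genes. In the 20 arrays 2 members had a rhythm in TSR with that block, as did 2400 genes, and Pdia3 at ZT19 turned to -0.059. Whether replicate numbers pair arrays was not settled. Over 7 pairs of like number, deviations correlated at -0.073 to 0.443. The 2 pairs over 0.1 were both at ZT13 (0.443 and 0.291). No pair at ZT19 could be checked, and pairs of unlike number were not compared. No filter, the mean of probe sets and blanking shifted cells, run on the 24 arrays, gave the same counts.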
